A study of Homo sapiens with 6 samples.

Results

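The genes described here encode the nuclear subunits of the mitochondrial respiratory chain and of the ATP synthase, together with a few factors that share their gene symbols' stems. They were picked by name: every gene with a probe set annotated to it alone whose symbol began with NDUFA, NDUFB, NDUFC, NDUFS, NDUFV, UQCR, ATP5 or one of the cytochrome c oxidase stems COX4 to COX8, or was SDHA, SDHB, SDHC, SDHD or CYC1, with 2 pseudogenes left out. The rule found 89 of the 19775 named genes on the array, of which 86 encode proteins. Of these, 76 were subunits: 33 of complex I, 3 of complex II, 7 of complex III, 16 of complex IV and 17 of complex V. The other 10 coding genes were 8 complex I assembly factors (NDUFAF genes), the supercomplex factor COX7A2L and the ATP synthase inhibitor ATP5IF1. SDHB, NDUFA4, NDUFA4L2, NDUFC2, NDUFS5, NDUFS8, UQCRFS1 and UQCRH had no probe set of their own by this rule and were not analysed here.

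Cells were JJN3, an established human multiple myeloma line, and their total RNA was read with Affymetrix U133 Plus 2.0 arrays. In 1 group of 3 arrays the cells had been transduced with a virus carrying an shRNA against CKS1B, a cofactor of the ubiquitin ligase that marks cell-cycle inhibitors for degradation, and in the other group of 3 with a virus carrying a scrambled shRNA without a specific target. Both groups therefore shared the transduction. The arrays carry the letters A, B and C in each group, and the label of scrambled array B holds a further word, poly, that is not explained. The labels do not state whether the arrays stem from different cultures. The p-values cover the spread among these arrays and no more, a spread that may be technical, and the number of arrays limits the precision.

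In the respiratory chain, complex I (NADH dehydrogenase) and complex II (succinate dehydrogenase) pass electrons to ubiquinone, complex III passes them on to cytochrome c, and complex IV (cytochrome c oxidase) hands them to oxygen. Complexes I, III and IV pump protons across the inner mitochondrial membrane, and complex V, the ATP synthase, uses the returning protons to make ATP. Most subunits are encoded in the nucleus and a small set in mitochondrial DNA, and antibody-secreting cells have a high demand for ATP. All values below are MAS5 intensities on a linear scale, given in the order array A, array B, array C within each group. A difference is on the scale log2(value + 16), CKS1B shRNA minus scrambled, for the brightest probe set of a gene. A gene was called when limma's adjusted p, over all 12663 genes above the median brightness of the array's probe sets, was below 0.05.

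CKS1B itself read 481, 269 and 828 on the CKS1B shRNA arrays, against 8266, 8441 and 7294 on the scrambled arrays. The groups did not overlap, at a log2 difference of -4.02 ± 0.44 (SE) with limma's adjusted p = 0.246 over the 6 arrays and -3.63 with adjusted p = 0.00126 without CKS1B shRNA array B, and the two-sided p of an exact permutation test was 0.1, which is as small as this design can give. The 5-array call was lost with no trend in the fit (limma's adjusted p = 0.145) and without scrambled array C as well (limma's adjusted p = 0.0518). CKS1B shRNA array B stood apart. Its log2 values correlated with those of the other 5 arrays at 0.577 to 0.610, its log2 values had an SD of 1.61, against 1.83 to 2.24 for the others, and its 3'-to-5' ratio for actin was 12.4, against 1.05 to 2.93. CKS1B shRNA array C had the next highest actin ratio, 2.93, and the widest upper end, with a 99th percentile of 13599, against 9370 to 10411 on the scrambled arrays. Summaries over the subunits are therefore given with and without array B, and the values of a named gene are given array by array. Of 10 plasma cell markers, JCHAIN, POU2AF1, IRF4 and TNFRSF17 were bright, CD38 was dim, and SLAMF7 was below the brightness limit. Their summed level was 64411, 65612 and 76296 on the CKS1B shRNA arrays, against 59707, 55737 and 55014 on the scrambled arrays, and JCHAIN, the joining chain of secreted antibodies, made up much of it with 17619.7, 19879.8 and 37717 in CKS1B shRNA cells, against 15689.9, 13131 and 16370.3 in scrambled cells. The markers did not move together: 4 of the 9 tested read higher and 5 lower in both fits, with medians of -0.32 over the 6 arrays and -0.0031 without array B. MZB1, a chaperone of antibody-secreting cells, read 1178, 442 and 2080.3 in CKS1B shRNA cells, against 2655, 3429 and 2403 in scrambled cells. It was the 1 of the 9 that lay below all scrambled arrays on all 3 arrays, beside 6.41% of all genes tested. JCHAIN and POU2AF1 lay above them on all 3 (2 of 9, beside 4.94%). POU2AF1 read 15392, 30311 and 17267 in CKS1B shRNA cells, against 12371, 11471 and 14602 in scrambled cells. CD38 read 396, 806 and 139.6 in CKS1B shRNA cells, against 377, 661 and 366 in scrambled cells.

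Of the 76 subunits, 73 were above the brightness limit and were tested, and COX7A1, COX8C and ATP5MF were not. No subunit was called over the 6 arrays, where 0% of all genes tested were called, and none reached an unadjusted p below 0.05. Over the 6 arrays 61 of the 73 subunits read lower and 12 higher in CKS1B shRNA cells. Their median log2 difference was -0.59, beside -0.08 over all genes tested and -0.51 over the 930 other bright genes set out below. The share that read lower was 83.6% of the subunits, beside 55.7% of all genes and 80.9% of those bright genes. In RNA of whole cultures, fewer cells with a transcript and less of it per cell cannot be told apart. Without CKS1B shRNA array B the counts were the other way round: 61 subunits read higher and 12 lower, with a median of 0.42, beside -0.04 over all genes. None was called there either, where 0.0158% of all genes were called higher and 0.0237% lower by limma, and the smallest adjusted p of a subunit was 0.460. At an unadjusted p below 0.05, 15 of the 73 subunits were higher without array B, beside 4.95% of all genes, and 0 were lower, beside 575 of all 12663 genes.

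The direction changed with 1 array. On CKS1B shRNA array B the subunits' median log2 difference from the scrambled mean was -2.24, which is 4.72-fold lower, and 65 of the 73 subunits read below all 3 scrambled arrays, as did 41.9% of all genes tested. On array A the median subunit lay 0.18 above the scrambled mean, and 41 of 73 read above all 3 scrambled arrays, beside 24.9% of all genes. On array C it lay 0.63 above, 1.55-fold higher, and 60 of 73 read above all scrambled arrays, beside 30.3% of all genes. The scrambled arrays' own medians, each set against the other 2 scrambled arrays, were between -0.07 and 0.05. A typical subunit ranked at the 96.2nd percentile of all genes tested on array A, the 67.1st on array B and the 97.3rd on array C, against the 96.4th to the 96.7th on the scrambled arrays.

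**Figure D1:**
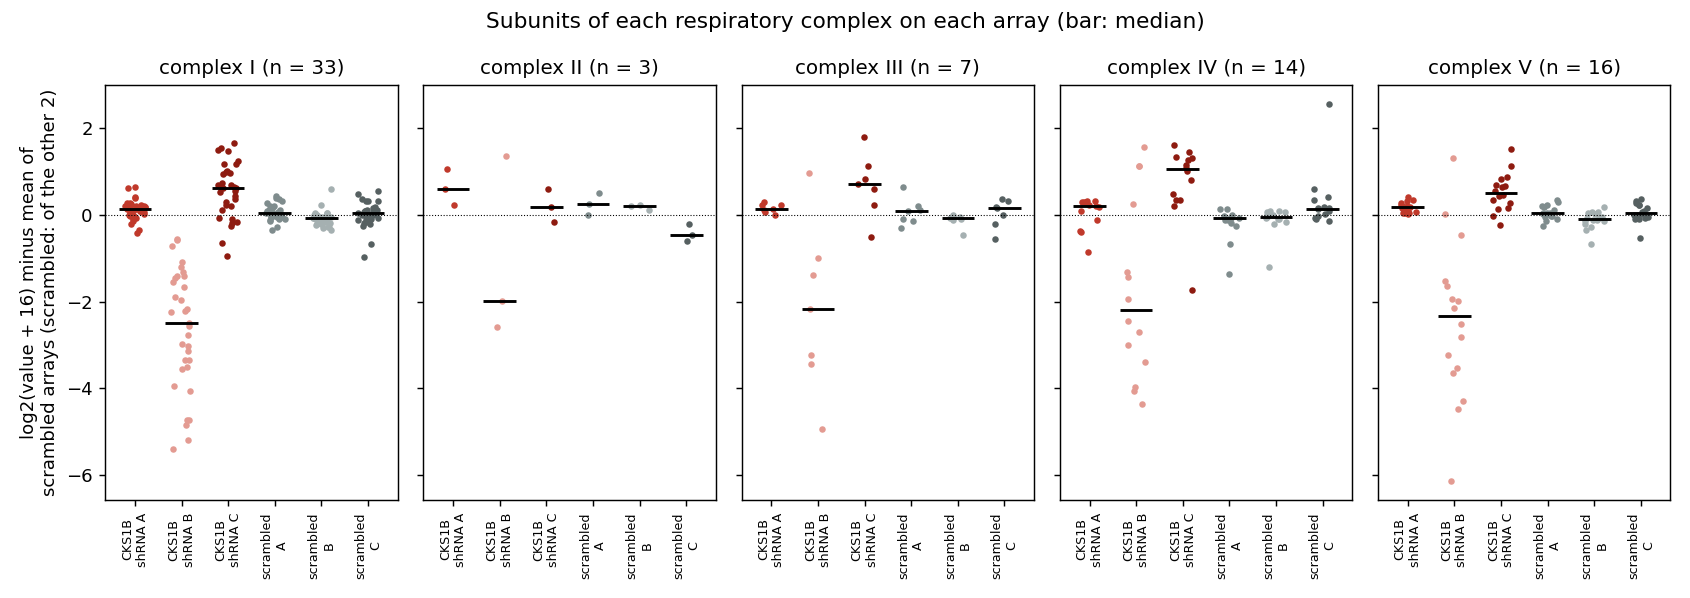
Each point is 1 of the 73 subunits tested, in the panel of its complex, on 1 array (CKS1B shRNA arrays in red, scrambled arrays in grey). The vertical axis is log2(value + 16) minus the mean of the scrambled arrays (for a scrambled array, of the other 2), and the bar is the median. On CKS1B shRNA array B the medians of all 5 complexes lie between -2.49 and -1.99, while those of arrays A and C lie above 0.

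Since subunits are bright, they were set beside the 930 other genes whose mean brightness fell between the subunits' quartiles (values of 4185 to 11608). This range was set for the subunits as a whole and not for each complex. Median levels of subunits in scrambled cells were 5988, 4524, 11632, 10070 and 11133 for complexes I to V. The 930 genes shared the displacement of array B, with a median shift of -1.91, beside -2.24 for the subunits. On array B 777 of the 930 read below all 3 scrambled arrays, beside 65 of the 73 subunits. On array A the 930 genes were 0.17 above the scrambled mean, beside 0.18 for the subunits. There 504 of the 930 read above all 3 scrambled arrays, beside 41 of the 73 subunits. On array C the 930 genes were 0.11 above the scrambled mean, beside 0.63 for the subunits. There 439 of the 930 read above all 3 scrambled arrays, beside 60 of the 73 subunits. Arrays A and C both read above all 3 scrambled arrays for 35 of the 73 subunits (47.9%), beside 13.6% of all genes tested and 31.5% of the 930 bright genes. On both arrays 0 of the 73 subunits read below all scrambled arrays, beside 14.4% of all genes. Whether the 3'-to-5' ratio, the width of the distribution or another property of these arrays had a part in these shifts was not tested.

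The upward readings came mostly from array C. When array C alone was set against the scrambled arrays with limma, assuming that it varied as they did, 22 of the 73 subunits were called higher and 0 lower, beside 2.49% of all genes higher and 0.426% lower. They comprised 9 of complex I, 3 of complex III, 7 of complex IV, 3 of complex V and 0 of complex II. Array A alone gave 0 called subunits, beside 0.0079% of all genes. The array-C calls rest on 1 array with no replicate and are a comparison of that array with 3 others, not of the conditions.

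Subunit genes share promoter elements, and 64 of the 76 subunits had a promoter window in the RefSeq table (build GRCh38.p14, 250 bases before to 50 after the gene start, 300 in all). The windows were searched on both strands for the core of the NRF1 site, GCGCATGC, for an ETS site as bound by GABPA, CCGGAAGT, and for a YY1 site, AAGATGGCG. NRF1, GABPA and YY1 are transcription factors known to act on respiratory genes. The NRF1 core was found in 12 of the 64 windows (18.8%), beside 4.26% of 15843 windows of coding genes, the ETS site in 9 (14.1%, beside 6.19%) and the YY1 site in 7 (10.9%, beside 2.74%), and different motifs overlapped in 0 of the 64. At least 1 of them was in 23 windows (35.9%, beside 12.2%). Among the 9622 windows of genes tested here the shares were higher, at 5.48% for NRF1, 8.64% for ETS, 3.98% for YY1 and 16.7% for any of them. The windows of the brightest subunit of each complex that holds a motif are shown, with the motif letters in capitals, to let a reader see where these elements lie. NDUFA13 is at chr19:19515975-19516274, SDHD at chr11:112086623-112086922, UQCRQ at chr5:132866392-132866691, COX6A1 at chr12:120437863-120438162 and ATP5F1C at chr10:7787927-7788226, all on the plus strand. The capitals of the SDHD window mark an NRF1 palindrome, which holds the core on both strands, and an ETS site, those of COX6A1 an NRF1 core on each strand at separate places, those of ATP5F1C an NRF1 palindrome and those of NDUFA13 and UQCRQ an ETS site.
NDUFA13: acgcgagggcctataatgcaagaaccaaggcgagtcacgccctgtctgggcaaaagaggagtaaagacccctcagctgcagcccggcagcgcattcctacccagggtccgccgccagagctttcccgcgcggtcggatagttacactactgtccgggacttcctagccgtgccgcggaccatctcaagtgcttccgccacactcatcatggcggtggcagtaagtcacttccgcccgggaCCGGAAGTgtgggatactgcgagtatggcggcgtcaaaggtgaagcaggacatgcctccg
SDHD: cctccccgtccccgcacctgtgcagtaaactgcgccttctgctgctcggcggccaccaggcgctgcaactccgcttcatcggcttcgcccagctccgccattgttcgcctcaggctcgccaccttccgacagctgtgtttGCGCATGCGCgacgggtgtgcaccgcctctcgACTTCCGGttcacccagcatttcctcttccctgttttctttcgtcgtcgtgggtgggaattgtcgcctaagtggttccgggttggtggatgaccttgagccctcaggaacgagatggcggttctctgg
UQCRQ: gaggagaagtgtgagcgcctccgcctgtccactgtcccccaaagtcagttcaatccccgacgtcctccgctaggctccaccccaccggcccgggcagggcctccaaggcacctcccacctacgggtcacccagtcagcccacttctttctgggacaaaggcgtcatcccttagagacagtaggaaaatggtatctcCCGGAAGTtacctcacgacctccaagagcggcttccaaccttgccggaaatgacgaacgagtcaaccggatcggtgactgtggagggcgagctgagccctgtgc
COX6A1: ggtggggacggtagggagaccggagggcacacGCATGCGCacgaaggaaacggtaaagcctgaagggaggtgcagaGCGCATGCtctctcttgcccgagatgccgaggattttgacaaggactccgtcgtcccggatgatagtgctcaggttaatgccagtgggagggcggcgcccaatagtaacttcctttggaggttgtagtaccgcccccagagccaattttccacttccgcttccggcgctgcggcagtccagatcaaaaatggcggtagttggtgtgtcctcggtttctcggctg
ATP5F1C: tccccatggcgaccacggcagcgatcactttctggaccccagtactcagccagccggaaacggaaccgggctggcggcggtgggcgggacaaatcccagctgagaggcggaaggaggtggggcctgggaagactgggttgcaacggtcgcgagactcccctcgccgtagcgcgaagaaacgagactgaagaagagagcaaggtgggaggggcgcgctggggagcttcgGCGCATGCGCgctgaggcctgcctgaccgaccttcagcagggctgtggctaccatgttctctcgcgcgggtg
Without CKS1B shRNA array B, the tested subunits with at least 1 of the motifs had a median log2 difference of 0.45 and those with none 0.37, and over the 6 arrays these medians were -0.53 and -0.71, given as a description with no test. A match is a run of letters and not evidence that a factor binds there.

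Complex I had 33 subunits, all of them tested, with a median log2 difference of -0.70 over the 6 arrays and 0.38 without CKS1B shRNA array B. Of the 33, 13 (39.4%) read above all scrambled arrays on both A and C. The shares beside it were 13.6% of all genes tested and 31.5% of the 930 bright genes, which were not matched to this complex. NDUFB9, an accessory subunit of the membrane arm and the brightest by mean level, read 19612, 1680.5 and 39229.7 in CKS1B shRNA cells, against 16579.8, 16617 and 18858 in scrambled cells. Arrays A and C were above all scrambled arrays and array B was far below them. NDUFA11, another membrane-arm subunit, had the largest difference of complex I without array B, 0.94 ± 0.36 (SE; limma's adjusted p = 0.500) but -0.73 ± 1.29 over the 6 arrays, from 9532, 474 and 25891 in CKS1B shRNA cells, against 8096, 7859.8 and 8669 in scrambled cells. NDUFA13, also known as GRIM-19, a membrane-arm subunit studied for a part in cell death, read 12879.9, 5241 and 32516 on the CKS1B shRNA arrays, against 10858, 9668 and 12892 on the scrambled arrays. Its array A value was just under that of the highest scrambled array, so the groups overlapped even without array B. At the other end stood NDUFA5, an accessory subunit of the arm that takes up NADH's electrons, with 1659, 679 and 942 in CKS1B shRNA cells, against 2258, 2039 and 1339 in scrambled cells, a difference without array B of -0.55 ± 0.32 (adjusted p = 0.585 by limma) and over the 6 arrays of -0.83 ± 0.42. NDUFS1, the core iron-sulfur subunit at the entry of the chain, read 2981, 629 and 4107 in CKS1B shRNA cells, against 3836, 3674 and 3904 in scrambled cells. Its arrays A and C lay on opposite sides of the scrambled arrays.

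Complex II, the enzyme that links the citric acid cycle to the chain, was measured through 3 genes, SDHA, SDHC and SDHD, which had a median of -0.39 over the 6 arrays and 0.41 without CKS1B shRNA array B. SDHC, a membrane anchor, read 8610.2, 10449.8 and 4639 in CKS1B shRNA cells, against 5149, 4308 and 3089 in scrambled cells, so on this probe set, the brightest of 7, array B was the highest of all 6. Its next brightest read 9307, 4207 and 5374 in CKS1B shRNA cells, against 5529.7, 5159 and 3629 in scrambled cells, with array B inside the scrambled range, and the third 5922, 1004 and 5094 in CKS1B shRNA cells, against 4229.6, 3709.7 and 2507 in scrambled cells, with array B the lowest. SDHD, the other membrane anchor, read 5325, 1122 and 6789 in CKS1B shRNA cells, against 4498, 5002 and 4072 in scrambled cells. It was the only one of the 3 (33.3%) whose arrays A and C were both above all scrambled arrays. The shares beside it were 13.6% of all genes tested and 31.5% of the 930 bright genes, which were not matched to this complex. SDHA, the flavoprotein that oxidises succinate, read 8371, 893 and 4885 in CKS1B shRNA cells, against 6152, 6048 and 4423 in scrambled cells. Here array A was the highest and array C lay within the scrambled range. Unlike complexes I, III, IV and V, complex II had a larger median shift on array A (0.61) than on array C (0.18), a difference between sets that was not tested.

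Complex III was represented by 7 subunits with a median of -0.42 over the 6 arrays and 0.45 without CKS1B shRNA array B. Of the 7, 4 (57.1%) read above all scrambled arrays on both A and C. The shares beside it were 13.6% of all genes and 31.5% of the 930 bright genes, which were not matched to this complex. CYC1, the haem-bearing subunit that hands electrons to cytochrome c, was the brightest by mean level and read 17167, 7343 and 24051 in CKS1B shRNA cells, against 16072, 14662 and 13359 in scrambled cells. UQCR11, a small accessory subunit, spanned the widest range of the complex, with 11843, 370.5 and 40976 in CKS1B shRNA cells, against 10231, 11703 and 13702 in scrambled cells. Array C was far above and array B far below the scrambled arrays, and array A lay among them. UQCRQ, another small subunit, read 12609, 1223 and 25225 in CKS1B shRNA cells, against 10922, 11305 and 12669.6 in scrambled cells, a difference without array B of 0.62 ± 0.29 (limma's adjusted p = 0.532) and over the 6 arrays of -0.66 ± 1.03. UQCRC2, a core protein of the matrix side, read 6054, 10105 and 3613 in CKS1B shRNA cells, against 6937, 4933 and 3968 in scrambled cells, so array B was the highest of the 6 and array C the lowest. UQCRB, a quinone-site subunit, read 16314, 5656 and 17315 in CKS1B shRNA cells, against 14204, 14467 and 16043 in scrambled cells, and was called in neither fit.

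Complex IV had a median of -0.51 over the 6 arrays and 0.54 without CKS1B shRNA array B over 14 tested subunits. Its 5-array value was above those of the other complexes in the deposited scaling, a difference that was not tested, but without both letter-B arrays complexes II and IV were at 0.49 each, and after quantile normalization complex II was at 0.23 and complex IV at 0.14. Of the 14, 9 (64.3%) read above all scrambled arrays on both A and C. The shares beside it were 13.6% of all genes and 31.5% of the 930 bright genes, which were not matched to this complex. On array C alone the median of complex IV was 1.05 above the scrambled mean, 2.07-fold. COX6C, a small membrane subunit and the brightest, read 24959, 1489 and 52566 in CKS1B shRNA cells, against 21038, 21765 and 28673 in scrambled cells. COX6B1, which faces the intermembrane space, had the largest difference without array B, 0.90 ± 0.35 (SE; limma's adjusted p = 0.504) but -0.043 ± 0.84 over the 6 arrays, with 8798, 1997 and 23512 in CKS1B shRNA cells, against 7471, 7982 and 7611 in scrambled cells. COX4I1, the ubiquitous form of the largest nuclear-encoded subunit, read 15692, 15248 and 35062 in CKS1B shRNA cells, against 12091, 11589 and 14979.5 in scrambled cells. It was 1 of only 2 subunits, with COX7B2, whose 3 CKS1B shRNA arrays were all above all 3 scrambled arrays (2 of 73, 2.74%, beside 4.94% of all genes tested), while 0 were below, beside 6.41%. COX7B2, a form known from testis, was dim, with 242, 448 and 490.1 in CKS1B shRNA cells, against 189.8, 191 and 204 in scrambled cells. Over the 6 arrays the differences were 0.67 ± 0.58 for COX4I1 and 0.90 ± 0.42 for COX7B2 (SE; limma's adjusted p = 0.933 for each).

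Complex V had a median of -0.53 over the 6 arrays and 0.37 without CKS1B shRNA array B over 16 tested subunits, and quantile normalization of the 5 arrays turned its direction, to -0.052 with 7 higher and 9 lower. In the deposited scaling 8 of the 16 read above all scrambled arrays on both A and C. The shares beside it were 13.6% of all genes and 31.5% of the 930 bright genes, which were not matched to this complex. ATP5MG, subunit g of the membrane part, was the brightest by mean level and read 14986, 35766 and 31413 in CKS1B shRNA cells, against 12654, 14553 and 15917 in scrambled cells, with arrays B and C above all scrambled arrays and array A among them. ATP5F1D, the delta subunit of the rotor, had the largest difference of the complex without array B, 0.80 ± 0.39 (SE; limma's adjusted p = 0.543) but 0.024 ± 0.77 over the 6 arrays, with 8727, 2821 and 23515 in CKS1B shRNA cells, against 9458, 6018 and 9686 in scrambled cells. Array A lay inside the scrambled range, so this difference came from array C. ATP5F1B, the catalytic beta subunit, was the steadiest of the named genes, with 17825, 16268 and 13645 in CKS1B shRNA cells, against 16372, 16149.5 and 15448 in scrambled cells. ATP5PO, a subunit of the peripheral stalk that holds the catalytic head still, read 11774, 131 and 10177 in CKS1B shRNA cells, against 11296, 9799.7 and 9892 in scrambled cells. Its array A and array C values lay close to the scrambled ones, and array B was the lowest of the 6 by far.

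**Figure D2:**
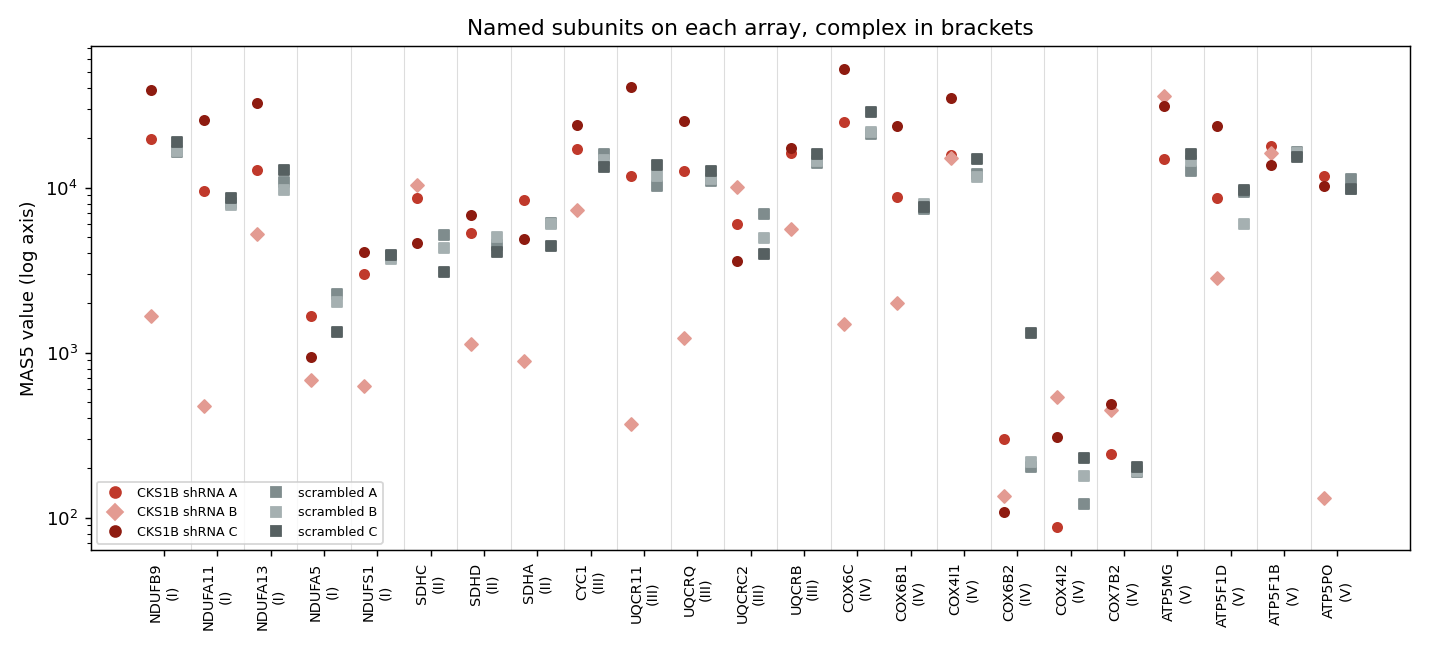
Values of the named subunits on each array, on a log axis, with the CKS1B shRNA arrays (red, array B as a diamond) left of the scrambled arrays (grey squares) for each gene and the complex in brackets. Array B is the lowest of the 3 CKS1B shRNA arrays for most genes but not for SDHC, UQCRC2, COX4I2, COX6B2, COX7B2, ATP5MG and ATP5F1B, and the scrambled arrays lie farthest apart for COX6B2.

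Several complex IV subunits have tissue-restricted forms, which were described by level. COX4I2, the lung form, read 87.8, 537 and 310.5 in CKS1B shRNA cells, against 121, 178 and 229.8 in scrambled cells, and COX6A2, the heart and muscle form, 101, 319.7 and 198 in CKS1B shRNA cells, against 124, 141 and 145 in scrambled cells. The muscle form COX7A1 and the testis form COX8C were below the brightness limit, with COX7A1 at 22.2, 135 and 6.9 in CKS1B shRNA cells, against 9.3, 21.8 and 48.1 in scrambled cells. The ubiquitous counterparts had their lowest value on array B, COX4I1 excepted. COX6A1 read 15223, 1181 and 31938 in CKS1B shRNA cells, against 11943, 12336 and 13529.8 in scrambled cells, and COX8A 16828, 648 and 17094 in CKS1B shRNA cells, against 13448, 13549.6 and 13600.4 in scrambled cells. The dim forms COX4I2, COX6A2, COX7A1, COX7B2 and COX8C read higher on array B than on array A, while COX6B2 did not. The median value of the whole array was likewise higher on array B than on array A. COX6B2, the testis form, read 298, 136 and 108 in CKS1B shRNA cells, against 203, 219 and 1325 in scrambled cells, where scrambled array C alone was high. The 3 genes of the c ring code for an identical mature protein. ATP5MC1 read 3820.4, 642 and 4153 in CKS1B shRNA cells, against 4036, 3588 and 3568 in scrambled cells, and the log2 differences of ATP5MC1, ATP5MC2 and ATP5MC3 without array B were 0.10, 0.18 and 0.31, and over the 6 arrays -0.77, -1.31 and -0.46.

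For 30 subunits with more than 1 probe set above the brightness limit, the probe sets of 1 gene could be set side by side as differences. Their shifts from the scrambled mean spanned a median of 0.40 log2 units on CKS1B shRNA array A, 2.87 on array B and 0.56 on array C, and they spanned more than 2 units in 0, 23 and 1 of the 30 genes. For UQCRC2 1 probe set read 6054, 10105 and 3613 in CKS1B shRNA cells, against 6937, 4933 and 3968 in scrambled cells, while another read 8686, 27.7 and 7444 in CKS1B shRNA cells, against 7796, 6837 and 7192 in scrambled cells. SDHC and COX4I1 differed between probe sets too. For COX4I1 the second probe set read 11171, 304 and 23069 in CKS1B shRNA cells, against 8362, 7116 and 7765 in scrambled cells, and with the mean of all its probe sets its log2 difference over the 6 arrays was -0.24 in place of 0.67. The brightest probe set was picked by its mean over all 6 arrays, array B included. Averaged over arrays A and C, the 2 brightest probe sets were both higher in 19 genes and both lower in 3 of the 30. On array B both were lower in 15 and the signs were opposite in 14. In several of these genes the next brightest probe set was far dimmer than the brightest. For ATP5PD it read 269, 297 and 162 in scrambled cells, against 12372, 11381 and 12530 for the brightest. In others, such as UQCRC2 and COX4I1, both were bright. Whether brightness had a part in the opposite signs was not tested. An average of 2 arrays is not like a single array, and signs were opposite for some genes on array A or C alone too. For UQCR10 the shifts were 0.07 and -0.62 on array A and 0.83 and -0.87 on array C.

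**Figure D3:**
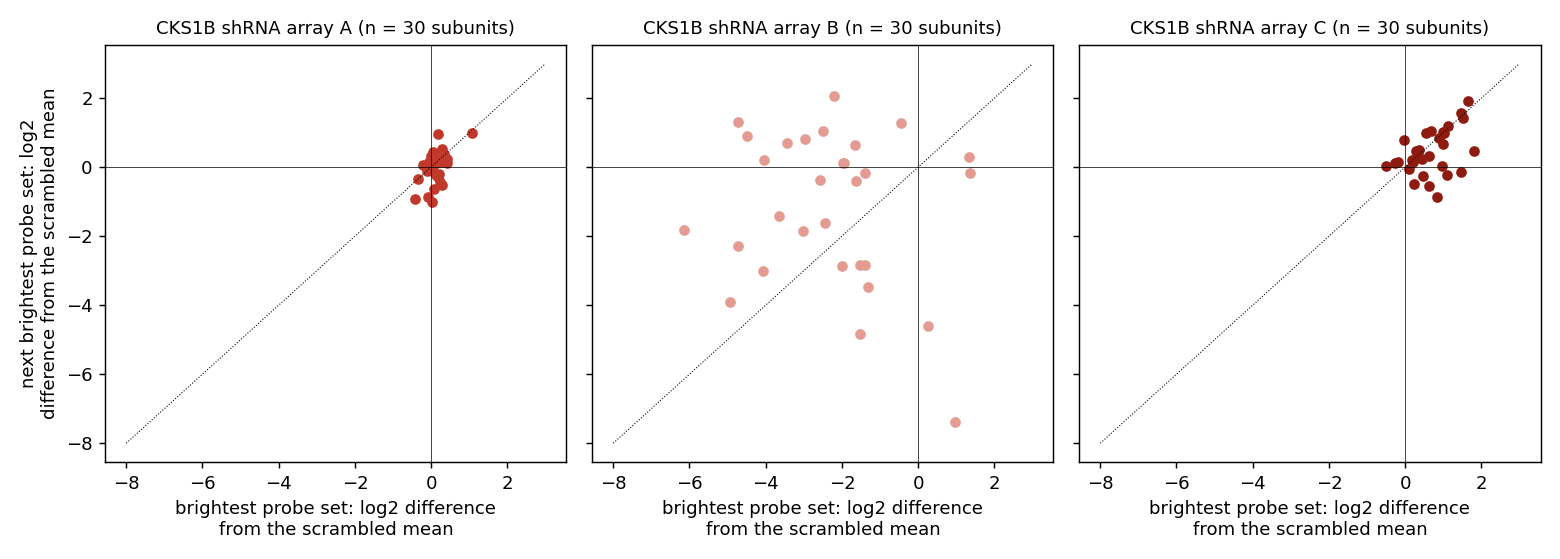
Each point is 1 of 30 subunits, with the shift of its brightest probe set from the scrambled mean on the horizontal axis and that of its next brightest on the vertical axis (log2 units), 1 panel for each CKS1B shRNA array. Points scatter farther from the dotted line of equality on array B, where the 2 probe sets had opposite signs in 14 genes, than on arrays A and C. Some genes had opposite signs on array A or C too, such as UQCR10 (0.83 and -0.87 on array C). In several genes the next brightest probe set was far dimmer than the brightest.

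The size of the upward reading depended on the scaling. Quantile normalization of the 5 arrays without CKS1B shRNA array B brought the subunits' median difference to 0.05, with 44 higher and 29 lower and a smallest adjusted p of 0.543 by limma. The groups then did not overlap for 3 subunits that were higher (4.11%), beside 12.7% of all genes, and 6 that were lower (8.22%), beside 14.2%. On array A the median subunit was at -0.02 and on array C at 0.17 after this step. Complex I and complex IV had the highest medians on array C, 0.31 and 0.43, while complex V was at -0.08 there.

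**Figure D4:**
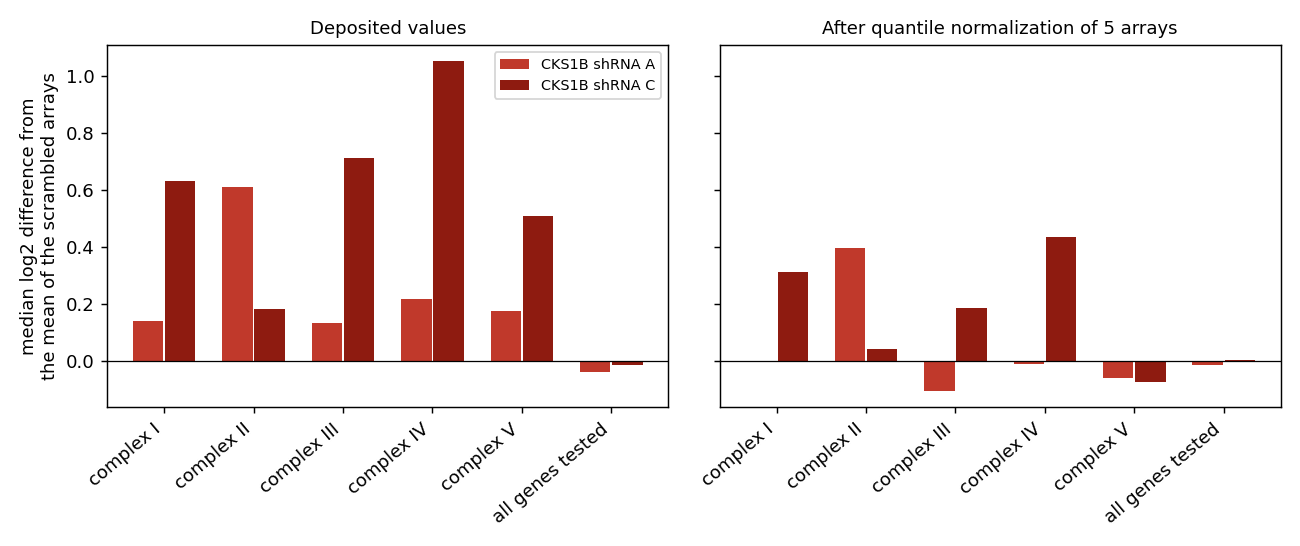
Bars give the median log2 difference of the tested subunits of each complex, and of all genes tested, from the scrambled mean, for CKS1B shRNA arrays A and C, in the deposited values (left) and after quantile normalization of 5 arrays (right). The complex IV bar of array C is 1.05 on the left and 0.43 on the right, and the bars of complexes I, III, IV and V on array A lie at or below 0 on the right.

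Most subunits encoded in mitochondrial DNA did not share the low readings of array B. Of 13 such genes 7 had a probe set of their own, and their median log2 difference was 0.77 over the 6 arrays and 0.58 without array B. None was called by limma in either fit, and 1 was higher at an unadjusted p below 0.05 without array B, beside 4.95% of all genes. On array B 5 of the 7 read above the scrambled mean and 2 below it. MT-ND2, a complex I subunit, read 22331, 40430.5 and 36568 in CKS1B shRNA cells, against 18532, 17505 and 21338 in scrambled cells, with no overlap of the groups. It was 1 of the 7 that were higher without overlap, beside 4.94% of all genes tested. MT-CO1, the catalytic subunit of complex IV, read 17105, 50123 and 54693 in CKS1B shRNA cells, against 15114, 22011 and 26947 in scrambled cells, where array A lay within the scrambled range. MT-ATP6, the proton channel of complex V, read 21862, 6196 and 43133 in CKS1B shRNA cells, against 17991, 19229 and 24006 in scrambled cells, and was lowest on array B, while MT-CO3, the other one below the scrambled mean there, read 5491, 3777 and 3372 in CKS1B shRNA cells, against 5208, 4981 and 4617 in scrambled cells. On array B the list's median shift was 1.10, beside -2.24 for the nuclear subunits of the same complexes, a contrast between transcripts of the same array that was not tested.

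The other 6 mitochondrial gene lists were set beside the nuclear subunits. Without CKS1B shRNA array B and in the deposited scaling, their median log2 differences were 0.09 for 49 assembly factors, -0.02 for 16 genes of the citric acid cycle, -0.05 for 23 genes of electron carriers, coenzyme Q and ADP/ATP exchange, -0.07 for 18 regulators of mitochondrial biogenesis, 0.17 for 80 genes of mitochondrial translation and 0.09 for 26 genes of protein import, with 0 called by limma in each. The values beside them were 0.42 for the nuclear subunits, 0.16 for the 930 other bright genes and -0.04 for all genes tested, and no difference between lists was tested. These lists were dimmer than the subunits on the other 5 arrays, and after quantile normalization the subunits themselves were at 0.05. In the same order, 2, 1, 2, 0, 7 and 3 genes were higher and 0, 1, 3, 0, 1 and 1 lower at an unadjusted p below 0.05 by limma. Of all 12663 genes tested, 627 (4.95%) were higher and 575 lower at that limit. Over the 6 arrays the same 6 medians were -0.41, -0.55, -0.36, -0.20, -0.46 and -0.43. Within the carriers, CYCS, which encodes cytochrome c, read 20071, 41828 and 27995 in CKS1B shRNA cells, against 16076, 14967 and 16199 in scrambled cells, higher on all 3 arrays. GPD2, the mitochondrial glycerol-3-phosphate dehydrogenase that feeds electrons to ubiquinone, was lower on all 3, with 313, 29.3 and 153 in CKS1B shRNA cells, against 953, 849.5 and 796 in scrambled cells, a difference without array B of -1.90 ± 0.35 (limma's adjusted p = 0.263) and over the 6 arrays of -2.69 ± 0.68 (adjusted p = 0.933 by limma). SLC25A4, the ADP/ATP exchanger of heart and muscle, was likewise lower on all 3, with 391, 358 and 225 in CKS1B shRNA cells, against 684, 555 and 828 in scrambled cells. GPD2 and SLC25A4 were among 3 of the 23 carriers whose 3 CKS1B shRNA arrays all lay below the scrambled arrays (beside 6.41% of all genes tested). CYCS was the 1 of the 23 that lay above them on all 3 (beside 4.94%). MRPL35, of the mitochondrial ribosome, had 1.09 ± 0.28 without array B (limma's adjusted p = 0.427) but -0.21 ± 0.99 over the 6 arrays, with 3030.3, 243 and 4957 in CKS1B shRNA cells, against 1839, 2188 and 1484 in scrambled cells. Since none of these passed the adjusted threshold, they are given as values.

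**Figure D5:**
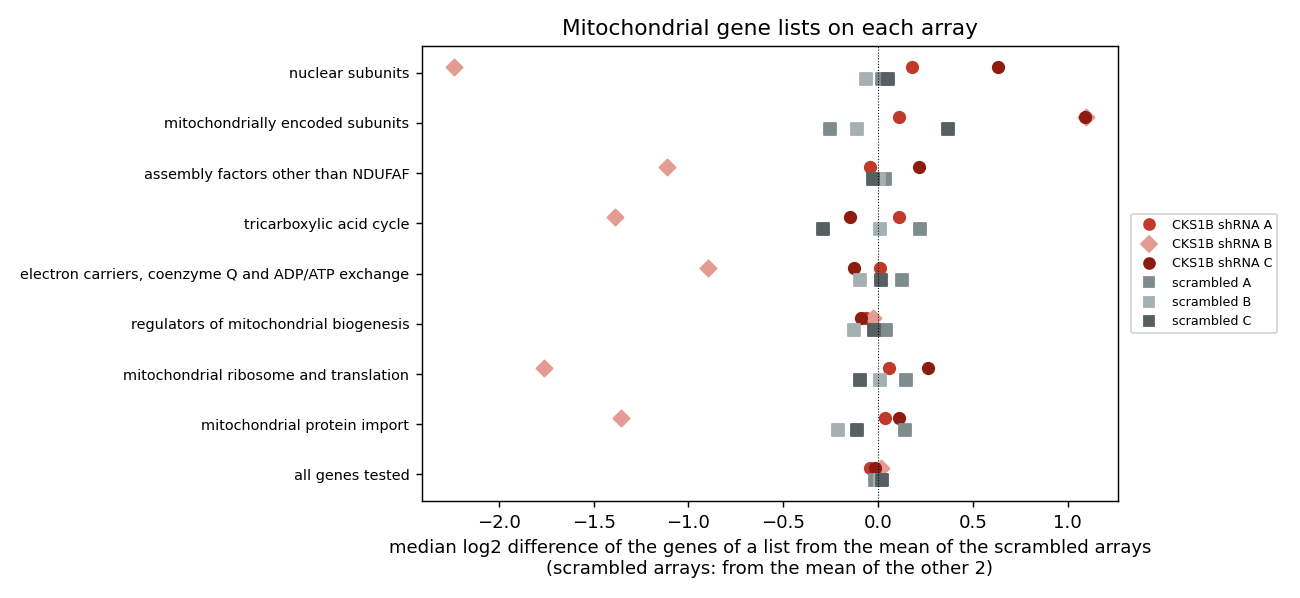
Points give the median log2 difference of each gene list from the scrambled mean on each array (for a scrambled array, from the mean of the other 2), with CKS1B shRNA arrays in red (array B as a diamond) drawn above scrambled arrays in grey. On array B the nuclear subunits lie at -2.24 and the mitochondrially encoded subunits at 1.10, and on array C these lists lie at 0.63 and 1.09.

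The 8 NDUFAF assembly factors, which build complex I and leave it, had a median of -0.68 over the 6 arrays and 0.07 without CKS1B shRNA array B, and 0 were called or reached an unadjusted p below 0.05 by limma. NDUFAF2 read 2604, 2363 and 3073 in CKS1B shRNA cells, against 2074, 2056 and 2140.4 in scrambled cells, and was higher on all 3 arrays. NDUFAF4 read 2429, 413 and 2592 in CKS1B shRNA cells, against 3152, 3117 and 2774 in scrambled cells, and was lower on all 3. Both were singled out after their values were seen. That is 1 of the 8 in each direction, beside 4.94% of all genes tested that were higher without overlap and 6.41% lower. ATP5IF1, which blocks the ATP synthase from running backwards, read 4289, 349 and 5079 in CKS1B shRNA cells, against 4058, 3650 and 3363 in scrambled cells, with arrays A and C above and array B below all scrambled arrays. COX7A2L, a factor that joins complexes III and IV, read 4341, 2719.7 and 2918 in CKS1B shRNA cells, against 3754, 3655 and 2642 in scrambled cells, with overlapping groups.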

How the data were processed

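The authors deposited intensity values on a linear scale, which come from MAS5 as named in the submitters' processing notes. Its version and settings are not given in the sources used for this report. Every array had a 2% trimmed mean of 500, a scaling that leaves the width of each distribution as it was. Of 54613 probe sets other than controls, those with exactly 1 annotated gene were used, with symbols updated through RefSeq (GRCh38.p14). Values were taken as log2(value + 16). Genes were tested on their brightest probe set over the 6 arrays, if its mean was at or above the median of all probe sets (7.34, a value of 146). Differences were tested with lmFit and eBayes with a trend (limma 3.58.1, R 4.3.3), with Benjamini-Hochberg adjustment over 12663 genes. The fit was tested on simulated data with known changes. Tables and figures used Python 3.11.15 with pandas 2.3.3 and matplotlib 3.10.9.

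Genes were named by rule: CKS1B, and in each complex the brightest member, the 2 largest and 2 smallest differences without CKS1B shRNA array B, all members whose groups did not overlap, all members called, the isoform pairs, and in each related list up to 2 members a direction with the smallest p, of which some are printed. The members and lists were chosen with earlier results of these data known, and the promoter windows and motifs after their values were seen. Whether the letters pair the arrays is not known, and the main fit took the arrays as unpaired. Sample titles give neighbouring numbers to arrays of the same letter. Deviations from the group means correlated at 0.40 for A, -0.08 for B and -0.08 for C, and at -0.37 to 0.26 for arrays of different letters. These values cannot decide it, since CKS1B shRNA array B, which stood apart, enters the mean of its group. Pseudocounts of 1 and 64, 2 other filters, centring, quantile normalization, array weights, other probe set rules, a block and leaving out each array were alternatives. Controls, probe sets of several genes and those with no name were left out.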

Additional observations from a re-analysis of the deposited data

How the results depend on the processing

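No subunit was called under any alternative except 1: leaving out CKS1B shRNA array A as well as array B gave 22 (0 to 22 over the arrays left out), where array C is alone in its group and assumed to vary like the scrambled arrays. The 6-array medians changed sign when array B lost its weight. With array weights they were 0.24 for all subunits and 0.21, 0.23, 0.32, 0.36 and 0.23 for complexes I to V. Without both arrays of letter B they were 0.37 for all subunits and 0.37, 0.49, 0.42, 0.49 and 0.35. Over the 6 arrays left out in turn, the ranges were -1.02 to 0.42 for all subunits, -1.24 to 0.38, -0.88 to 0.41, -0.94 to 0.45, -1.05 to 0.54 and -1.10 to 0.37 for complexes I to V, and only without CKS1B shRNA array B were they above 0. Likewise the assembly factors, mitochondrial translation and protein import read 0.087, 0.17 and 0.091 without it. Without array B from the start, the ranges were 0.18 to 0.63 for all subunits, 0.14 to 0.63 for complex I, 0.13 to 0.71 for III, 0.22 to 1.05 for IV and 0.17 to 0.51 for V, lowest without CKS1B shRNA array C and highest without array A. In the same 5 arrays, centring each array on its median gave 0.62 for all subunits and 0.57 for complex V. Quantile normalization gave 0.047 for all and 0.13, 0.23, 0.013, 0.14 and -0.052 for complexes I to V. Using only suffix-free probe sets, whose names are digits followed by _at, gave 0.15 for all, 0.064 for I and 0.20 for V. This setting also moved some genes to much dimmer probe sets. For NDUFA11 the suffix-free one read 140, 101 and 98 in scrambled cells, against 8096, 7860 and 8669 for the brightest. The letter as a replicate block gave 0 calls and a 5-array median of 0.37, and no call changed with it. Single genes with small differences changed sign without array B: under centring NDUFS1 (0.078), UQCRC2 (0.062), COX4I2 (0.18) and ATP5F1B (0.16), under quantile normalization CYC1 (-0.087), UQCRB (-0.28), COX6C (-0.11), COX4I2 (0.20) and ATP5PO (-0.21), and COX4I2 also with a pseudocount of 64 (0.015), the block (0.0046) and array weights (0.091). UQCRB was at -0.016 with the mean of its probe sets and -0.042 with suffix-free ones, and COX4I1 at -0.28 with suffix-free ones, or, over 6 arrays, -0.24 and -0.57 under these settings. The suffix-free probe set of COX4I1 was dim, with 350, 145 and 216 in CKS1B shRNA cells, against 245, 490 and 322 in scrambled cells. Averaged over arrays A and C, its brightest and next brightest probe sets had shifts of 0.87 and 1.05. With arrays left out in turn the ranges were -0.23 to 0.16 for ATP5F1B, -0.018 to 0.19 for ATP5PO, -0.85 to 0.81 for COX4I2, -0.35 to 0.11 for NDUFS1, -0.17 to 0.61 for SDHA and -0.51 to 0.24 for UQCRC2. CKS1B's own adjusted p without array B was 0.145 with no trend and 0.0518 without scrambled array C as well. The cause of these changes was not tested. The number of arrays limits all of them.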

Other observations

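Of the 3 non-coding genes that share a subunit gene's stem, NDUFB2-AS1, antisense to a complex I gene, read 188, 858 and 314 in CKS1B shRNA cells, against 119.6, 167 and 184 in scrambled cells. NDUFV1-DT read 318, 1943 and 85.6 in CKS1B shRNA cells, against 337, 415 and 223 in scrambled cells, and NDUFV2-AS1 260.4, 760.1 and 280.1 in CKS1B shRNA cells, against 214, 164 and 320.5 in scrambled cells. All 3 were highest on CKS1B shRNA array B, the array on which most coding subunits were lowest, and none was called. The median value of the whole array was also highest on array B, so high readings of dim genes there need not be particular to these 3. Whether their dimness had a part was not tested. Markers of other cell types, which were dim, did not all read high there. The summed level of 5 T cell markers was 732, 4219 and 901 on the CKS1B shRNA arrays, against 642, 938 and 1536 on the scrambled arrays, but of these CD8A read 298, 38.7 and 344 in CKS1B shRNA cells, against 329.7, 271 and 342 in scrambled cells. The sums of the myeloid, stromal and erythroid markers were also highest on array B, at 1334, 2279 and 1112, while the median shifts of those above the brightness limit were -0.31, -0.36 and 0.36 there.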
